A study of Mus musculus with 12 samples.

Results

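The 49 genes described here encode actins, tubulins, motors and filament proteins, together with the proteins that bind actin monomers, branch, cap and crosslink actin filaments or tie them to membranes. They were taken by gene symbol from a list, with no measured value in the rule, out of 55416 gene identifiers counted in each library. All 49 were found and all 49 passed the filter on low counts, with 427 to 68650 reads per gene and library, so no member is missing from the counts given here. Coding lengths run from 132 bases (Tmsb4x and Tmsb10) to 7917 bases (Flna).

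Poly(A) RNA was sequenced in 12 libraries from E14Tg2a.4, a line of mouse embryonic stem cells. In all 4 groups the cells were of the line Rpl31-FTA, in which Rpl31, a protein of the large ribosomal subunit, carries FLAG, a TEV site and an AviTag, and all groups were handled under the same growth and treatment protocol, with cycloheximide in the lysis buffer. ALIBi, a biotinylation system supplied on plasmids as N-terminal and C-terminal fragments, was directed to the cytosol or to the endoplasmic reticulum (ER), and biotinylated ribosomes were affinity purified with their mRNAs. The groups were RNA bound to cytosol-labelled ribosomes, RNA bound to ER-labelled ribosomes, whole-cell RNA from lysates of cells with cytosol targeting and whole-cell RNA from lysates of cells with ER targeting, each with 3 biological replicates. The series' design text mentions small interfering RNA in some cases, which none of the labels used here carries. The labels name no separate cultures or days and do not say whether the tagged line is 1 clone, so the p-values reflect only how far these samples spread.

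Actin filaments and microtubules are polymers that the cell assembles and takes apart continually, and myosins, kinesins and dynein move along them. Their subunits are made on ribosomes in the cytosol, without a signal sequence, and newly made actin and tubulin are folded by the chaperonin. mRNAs of secreted and membrane proteins are brought to the ER while they are translated, whereas cytoskeletal mRNAs are known to be translated in the cytosol, with some also found on ER-bound ribosomes.

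Gene counts came to 21.1 to 26.9 M per library. Embryonic stem cell markers summed to 8957.3 to 14100.3 counts scaled to library size (CPM) over the libraries, and none of the 10 markers was at 0 in all libraries. Fibroblast markers, 5 of 7 of which passed the filter, summed to 80.3 to 83.6 CPM on ER-labelled ribosomes and to 24.5 to 27.9 CPM in the other 9 libraries. Markers of endoderm (12.3 to 23.3 CPM), mesoderm (2.9 to 5.5 CPM), neural cells (54.9 to 69.8 CPM) and trophectoderm (123.3 to 155.4 CPM) were low, and none was at 0 in all libraries. The part of other cells in the results was not tested, and in bulk samples fewer cells of a type and less RNA per cell cannot be told apart. Reads placed at more than 1 site made up 4.92% to 5.11% of reads on ER-labelled ribosomes, 5.58% to 6.17% on cytosol-labelled ribosomes and 7.25% to 7.58% in whole-cell RNA. Their part in the results for near-identical genes was not tested.

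As a group, cytoskeletal mRNAs took up 1.51 ± 0.01% of gene counts (SD, n = 3) on cytosol-labelled ribosomes and 1.17 ± 0.01% on ER-labelled ribosomes. In whole-cell RNA they took up 1.33 ± 0.01% under either targeting. The 3 cytosol-labelled libraries, at 1.51%, 1.52% and 1.52%, lay above all whole-cell libraries, and the 3 ER-labelled libraries, at 1.17%, 1.18% and 1.17%, lay below them. These shares depend on what else is in each library.

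Per length of mRNA, Tubb5, Tmsb10 and Actg1 were the most abundant members, at 990.9, 724.6 and 593.9 CPM per kb in whole-cell RNA with cytosol targeting, and Sptbn1 stood at 6.16 CPM per kb.

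Which cytoskeletal mRNAs sat on ER-labelled and which on cytosol-labelled ribosomes was the first question. Of the 49 members, 28 were lower on ER-labelled ribosomes, 9 were higher and 12 did not pass the threshold (adjusted p below 0.05, quasi-likelihood test of edgeR, adjusted by Benjamini-Hochberg over the 16221 genes tested). Over all genes 53.6% were called, 24.6% as lower and 29.1% as higher. The median log2 ratio was -0.12 over the members and 0.00 over all genes. Over 74 genes for glycolysis, the proteasome, tRNA charging and translation factors it was -0.21, with 52 lower and 10 higher. Differences were small in either direction, the largest being 1.33-fold lower and 1.32-fold higher. With cytosolic scaling, in which libraries are set to equal summed counts of these 74 genes, 20 members were lower and 10 higher (median -0.04). Of the 74 genes themselves 46 were then lower and 13 higher (median -0.13), so this scaling did not bring their median to 0. Over all genes 5390 were then higher and 2513 lower, in place of 4715 and 3983. With mitochondrially encoded genes left out, 36 members were lower and 6 higher, while over all genes 5040 were lower and 4294 higher.

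**Figure D1:**
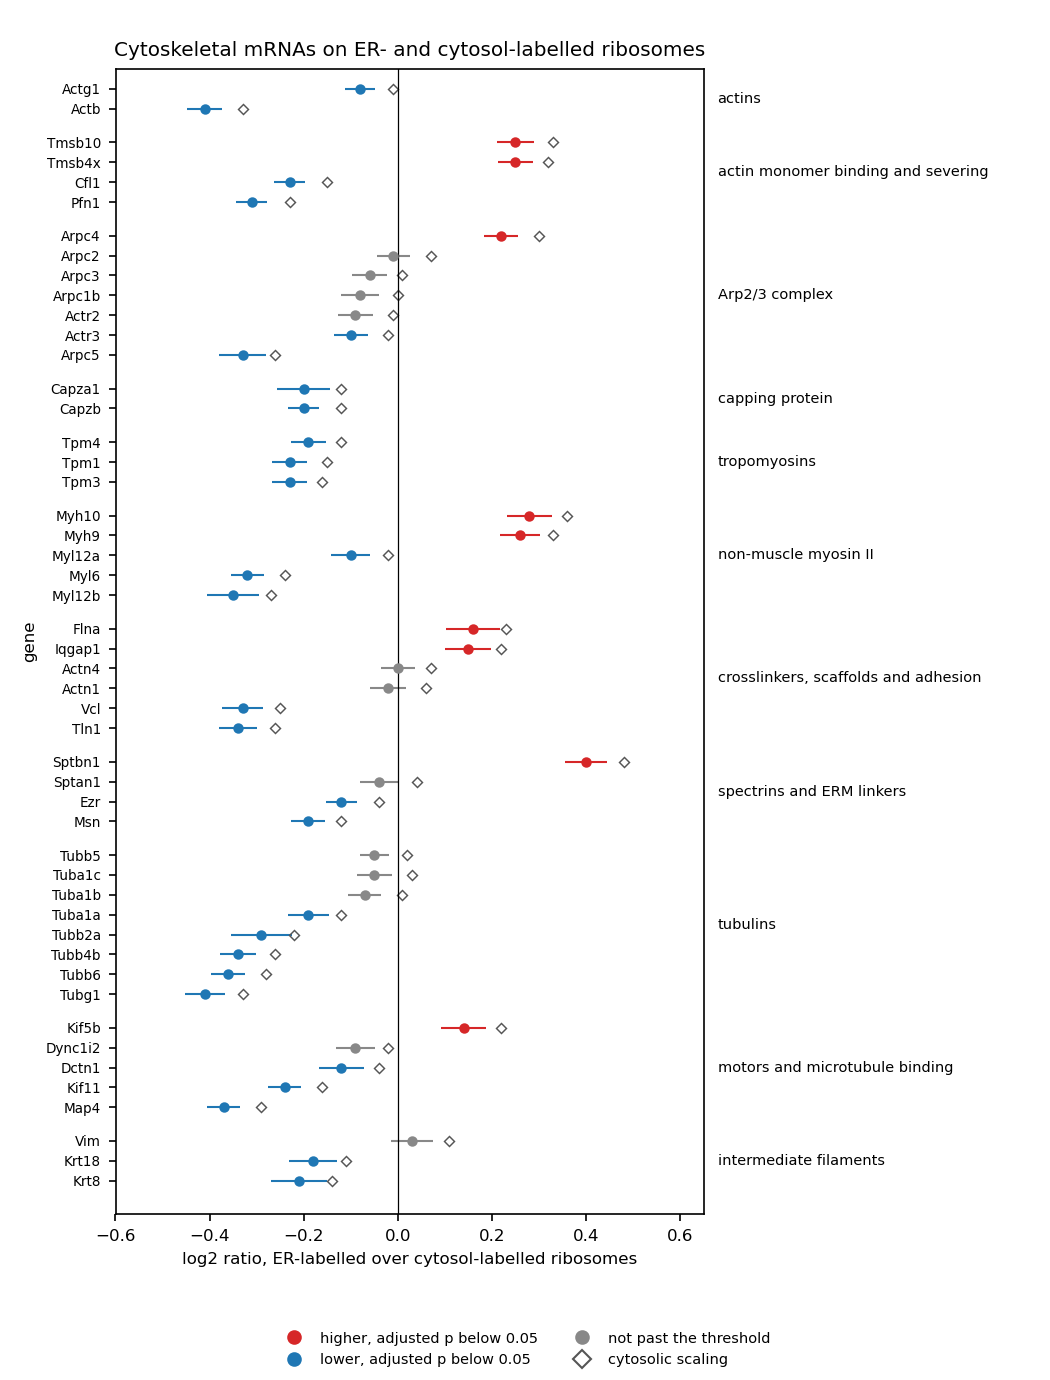
Log2 ratio of each member on ER-labelled over cytosol-labelled ribosomes, grouped by role (filled points, with the standard error as bars, 3 libraries a group), and the same ratio with cytosolic scaling (open diamonds). Values run from -0.41 for Actb and Tubg1 to 0.40 for Sptbn1, and 28 members lie lower and 9 higher past the threshold, or 20 and 10 with cytosolic scaling.

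The actins, which form the filaments themselves, were both lower on ER-labelled ribosomes, but by different amounts. Actb, the beta-actin of non-muscle cells, was at 746.3, 740.2 and 723.4 CPM on cytosol-labelled and at 536.6, 551.4 and 573.8 CPM on ER-labelled ribosomes. In whole-cell RNA Actb was at 633.2, 615.9 and 568.1 CPM with cytosol targeting and at 574.7, 592.0 and 601.5 CPM with ER targeting. All 3 cytosol-labelled libraries stood above all 9 others. The 3 ER-labelled ones lay below whole-cell RNA with ER targeting but overlapped with whole-cell RNA with cytosol targeting. The log2 ratio of ER-labelled over cytosol-labelled ribosomes was -0.41 (SE 0.037, adjusted p = 3.9e-12, edgeR), with that of Tubg1 the lowest of the members, and against whole-cell RNA it was 0.28 (SE 0.037) for cytosol-labelled and -0.09 (SE 0.037) for ER-labelled ribosomes. The last value became 0.19 with cytosolic scaling and was not called when replicate 1 or 2 of the ER ribosome-bound group, or replicate 2 or 3 of the ER whole-cell group, was left out. Actg1, the gamma-actin of the same cells, was at 1218.0 ± 25.2 CPM on cytosol-labelled and at 1150.3 ± 33.2 CPM on ER-labelled ribosomes (SD, n = 3), a log2 ratio of -0.08 (SE 0.032, adjusted p = 0.03, edgeR). It was -0.01 and no longer called with cytosolic scaling, and it was not called without cytosol ribosome-bound replicate 3.

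Both actin genes have 1125 coding bases, without the stop codon, and 88.6% of these are identical. Their first 30 coding bases, from the GENCODE M21 annotation on GRCm38, are shown because the 2 mRNAs differ in ribosome labelling and their counts rest on such differences. Capitals mark the 8 bases of this stretch that differ.
Actb: atggaTgaCgaTatcgcTgcGctGgtcGtC
Actg1: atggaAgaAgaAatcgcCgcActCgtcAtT

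The proteins that hold or release actin monomers split by gene, with 2 of 4 higher and 2 of 4 lower on ER-labelled ribosomes under either scaling. Of all genes 29.1% were higher and 24.6% lower before cytosolic scaling. Pfn1, profilin, which loads actin monomers onto growing filament ends, was at 456.3, 470.0 and 453.7 CPM on cytosol-labelled and at 377.1, 369.2 and 366.2 CPM on ER-labelled ribosomes. Whole-cell values of Pfn1 were 316.5, 316.2 and 303.8 CPM with cytosol targeting and 301.6, 312.1 and 317.6 CPM with ER targeting. Every ribosome-bound library was thus above every whole-cell library, and the cytosol-labelled ones were highest. The log2 ratio of ER-labelled over cytosol-labelled ribosomes was -0.31 (SE 0.033), and Pfn1 had the highest enrichment of the 49 on cytosol-labelled ribosomes over whole-cell RNA, 0.56 (SE 0.033, adjusted p = 1.5e-16, edgeR), or 1.47-fold. Cfl1, cofilin, which severs filaments, had a log2 ratio of -0.23 (SE 0.033) between ER-labelled and cytosol-labelled ribosomes.

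The thymosins, small proteins that sequester actin monomers, went the other way. Tmsb4x was at 212.9, 204.8 and 203.7 CPM on cytosol-labelled and at 236.7, 254.8 and 245.0 CPM on ER-labelled ribosomes, against 186.2, 182.3 and 193.8 CPM and 191.3, 199.7 and 183.3 CPM in whole-cell RNA with cytosol and ER targeting. Tmsb10 was at 423.3, 431.6 and 433.9 CPM on cytosol-labelled and at 508.1, 511.7 and 515.9 CPM on ER-labelled ribosomes, against 477.9, 434.3 and 442.0 CPM and 451.1, 489.9 and 427.9 CPM in whole-cell RNA with cytosol and ER targeting. For both genes the ER-labelled libraries were the highest of the 12, without overlap. Each had a log2 ratio of 0.25 over cytosol-labelled ribosomes, with SE 0.037 for Tmsb4x and 0.039 for Tmsb10 (adjusted p = 6.7e-07 and 1.0e-06, edgeR). Over whole-cell RNA, ER-labelled ribosomes had 0.36 (SE 0.038) for Tmsb4x, with that of Arpc4 the highest of the 49 there, and 0.17 (SE 0.040) for Tmsb10.

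The thymosin reading frames are the shortest of the members, and they are shown whole. Both mRNAs had a log2 ratio of 0.25 between the pools, and 69.7% of their bases are identical. The part of the sequence in these ratios was not tested. Capitals mark the 40 of 132 bases that differ (GENCODE M21 on GRCm38, stop codon left out).
Tmsb4x: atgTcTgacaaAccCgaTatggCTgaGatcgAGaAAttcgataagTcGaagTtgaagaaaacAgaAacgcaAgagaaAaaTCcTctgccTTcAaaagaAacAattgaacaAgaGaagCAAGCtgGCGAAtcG
Tmsb10: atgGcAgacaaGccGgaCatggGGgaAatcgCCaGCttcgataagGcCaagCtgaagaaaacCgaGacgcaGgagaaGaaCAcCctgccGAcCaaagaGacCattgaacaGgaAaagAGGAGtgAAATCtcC

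The Arp2/3 complex, which starts branches on actin filaments, has 7 members here, whose mRNAs did not move together. Arpc4, a subunit of the core, was at 110.1, 114.6 and 111.2 CPM on cytosol-labelled and at 129.3, 129.6 and 132.9 CPM on ER-labelled ribosomes. Whole-cell levels of Arpc4 were 105.1, 102.4 and 99.2 CPM with cytosol targeting and 100.7, 102.3 and 101.8 CPM with ER targeting. The ER-labelled libraries were the highest without overlap, with a log2 ratio of 0.22 (SE 0.036, adjusted p = 2.2e-06, edgeR) over cytosol-labelled ribosomes and 0.36 (SE 0.037) over whole-cell RNA. Arpc4 overlaps Ttll3 on the same strand in the annotation used, so its count may lack or hold reads of that gene. Arpc5, another subunit, fell to 59.6 ± 1.7 CPM on ER-labelled from 75.1 ± 4.1 CPM on cytosol-labelled ribosomes (SD, n = 3), a log2 ratio of -0.33 (SE 0.051). Actr3, one of the actin-related subunits, was lower at -0.10 (SE 0.036), but not with cytosolic scaling (-0.02) or without cytosol ribosome-bound replicate 3, and the remaining 4 members lay between -0.09 and -0.01 without passing the threshold. Against whole-cell RNA, Actr2, the other actin-related subunit, was lower on both ribosome pools, by -0.55 (SE 0.038) on ER-labelled and -0.42 (SE 0.037) on cytosol-labelled ribosomes.

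Capping protein, which blocks filament ends, and the tropomyosins, which wind along filaments, were lower on ER-labelled ribosomes in all 5 members. Of all genes 24.6% were lower. Capza1 and Capzb each had a log2 ratio of -0.20 (SE 0.056 and 0.033), Tpm1 and Tpm3 had -0.23 (SE 0.037 and 0.038) and Tpm4 had -0.19 (SE 0.037). With cytosolic scaling all but Capza1 were still called lower, between -0.16 and -0.12. Over whole-cell RNA all 3 tropomyosins were higher on cytosol-labelled ribosomes, beside 20.8% of all genes. Tpm1 and Tpm3 were higher by 0.24 (SE 0.037 and 0.038) and Tpm4 by 0.09 (SE 0.037). Tpm4 was not called without cytosol ribosome-bound replicate 1 or 3 or ER whole-cell replicate 1.

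In non-muscle myosin II, the motor that pulls on actin filaments, heavy and light chains differed. Myh9, a heavy chain, was at 90.6, 87.5 and 94.3 CPM on cytosol-labelled and at 110.1, 113.1 and 102.4 CPM on ER-labelled ribosomes. Whole-cell levels of Myh9 were 215.5, 202.8 and 200.7 CPM with cytosol targeting and 214.4, 219.9 and 203.7 CPM with ER targeting. The 4 sets of libraries thus fell into 3 levels without overlap, whole-cell RNA being highest. Myh9 had a log2 ratio of 0.26 (SE 0.043, adjusted p = 3.0e-06, edgeR) on ER-labelled over cytosol-labelled ribosomes, and of -0.97 (SE 0.041) and -1.18 (SE 0.041) on ER-labelled and cytosol-labelled ribosomes over whole-cell RNA.

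Myh10, a second heavy chain, was at 48.3, 49 and 52.9 CPM on cytosol-labelled and at 62.8, 63.4 and 56.2 CPM on ER-labelled ribosomes. In whole-cell RNA Myh10 was at 118.9, 118.0 and 112.1 CPM with cytosol targeting and at 117.0, 115.9 and 116.2 CPM with ER targeting. The order of the groups was that of Myh9, again without overlap between ribosome pools or with whole-cell RNA. Its log2 ratios were 0.28 (SE 0.048) between both ribosome pools, -0.94 (SE 0.045) for ER-labelled ribosomes over whole-cell RNA and -1.21 (SE 0.045, adjusted p = 2.1e-22, edgeR) for cytosol-labelled ribosomes over whole-cell RNA, the lowest value of any member. The light chains, which sit on the neck of the heavy chains, were lower on ER-labelled than on cytosol-labelled ribosomes, with -0.35 (SE 0.056) for Myl12b, -0.32 (SE 0.035) for Myl6 and -0.10 (SE 0.041) for Myl12a, the last not with cytosolic scaling (-0.02) or without cytosol ribosome-bound replicate 3. Myl12a was at 134.3, 138.1 and 134.1 CPM on cytosol-labelled and at 121.0, 126.1 and 132.0 CPM on ER-labelled ribosomes, against 110.4, 105.4 and 104.6 CPM and 111.2, 118.3 and 104.9 CPM in whole-cell RNA with cytosol and ER targeting. Ribosome-bound libraries were all above whole-cell ones, by 0.34 (SE 0.041) on cytosol-labelled and 0.18 (SE 0.042) on ER-labelled ribosomes. Myl12a and Myl12b share 96.5% of their coding bases and a second identifier named Myl12b overlaps both, so the split of reads between them is uncertain.

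**Figure D2:**
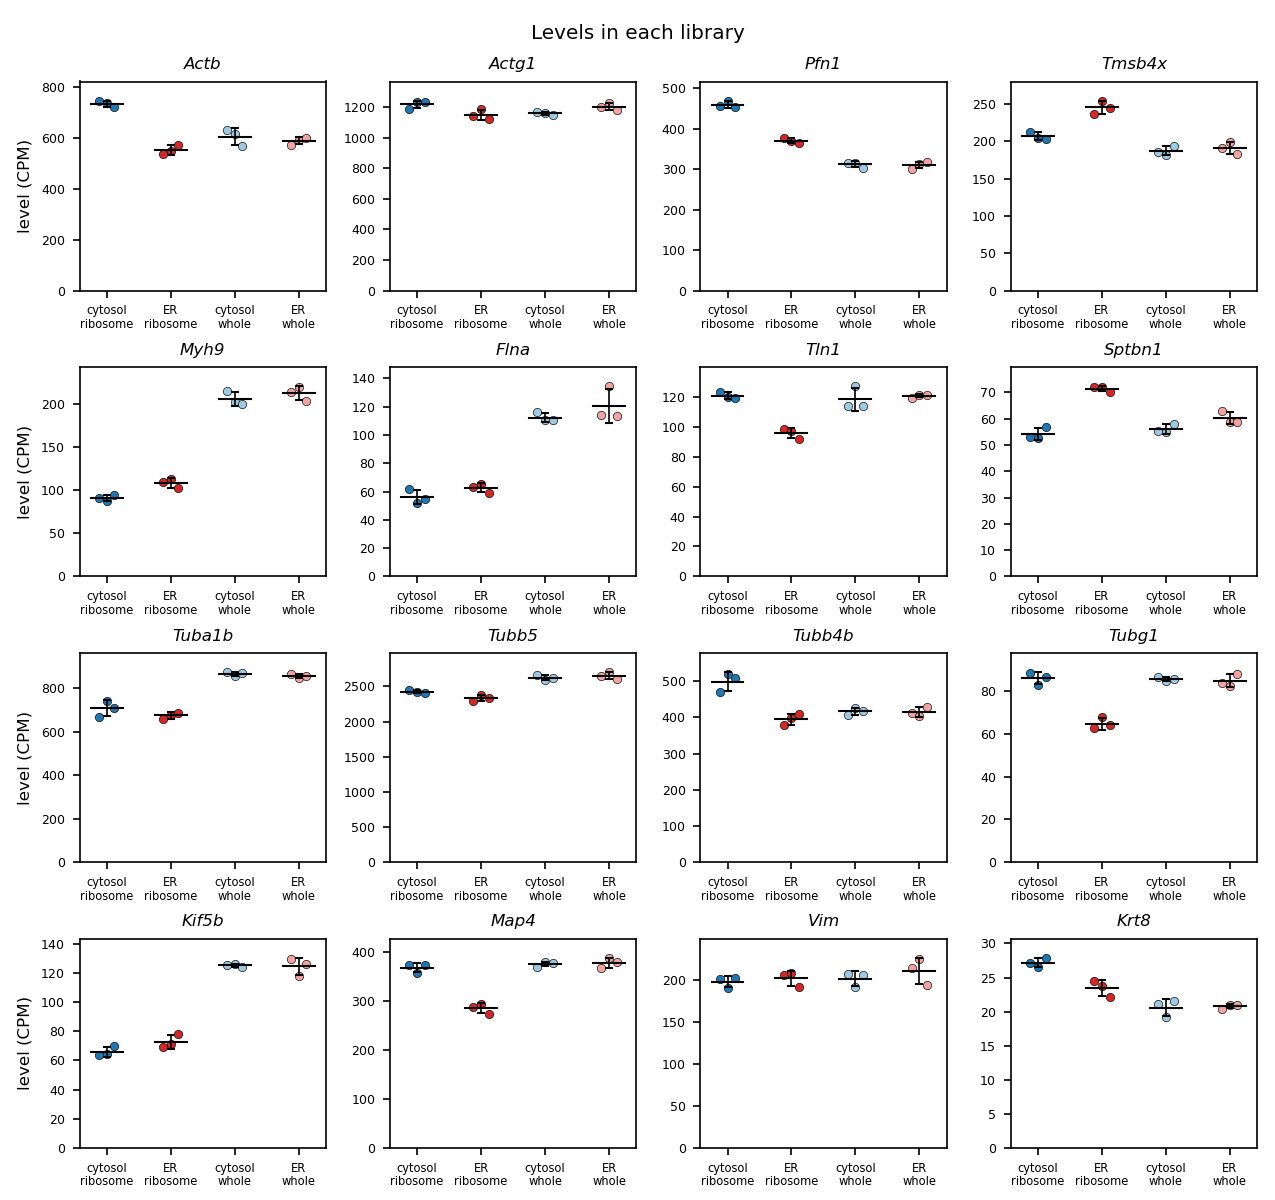
Level in CPM of 16 members in each of the 12 libraries, with points for libraries, lines for group means and bars for the SD (n = 3). Actb stands at 723.4 to 746.3 CPM on cytosol-labelled ribosomes, above the other 3 groups, while Myh9, Flna and Kif5b are highest in whole-cell RNA.

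Among crosslinkers, scaffolds and adhesion proteins, 2 of 6 members were higher and 2 of 6 lower on ER-labelled ribosomes, also with cytosolic scaling. These counts are near the shares of all genes, 29.1% higher and 24.6% lower before that scaling. Both higher calls were lost under other alternatives. Flna, filamin A, which joins actin filaments into networks, was at 61.5, 52.0 and 55.1 CPM on cytosol-labelled and at 63.3, 65.6 and 59.2 CPM on ER-labelled ribosomes. In whole-cell RNA Flna was at 116.2, 110.4 and 110.4 CPM with cytosol targeting and at 114.4, 134.5 and 113.3 CPM with ER targeting. The ribosome pools overlapped, and both lay far below whole-cell RNA. The log2 ratios over whole-cell RNA were -0.94 (SE 0.056) on ER-labelled and -1 (SE 0.056, adjusted p = 2.0e-17, edgeR) on cytosol-labelled ribosomes. Between both pools Flna had 0.16 (SE 0.058) and Iqgap1, a scaffold that links actin to signalling proteins, 0.15 (SE 0.049). Neither was called with RLE size factors, the scaling that DESeq2 uses, with values down to 0.04 and 0.05 over the alternatives. Leaving out 1 library ended the call of Flna for every library but ER whole-cell replicate 1 and cytosol ribosome-bound replicate 1, and that of Iqgap1 for every library but these and cytosol ribosome-bound replicate 3. Whole-cell libraries are not part of this comparison, but the scaling was computed anew for each set of libraries. Leaving out any whole-cell library but ER whole-cell replicate 1 gave 4297 to 4325 higher and 5099 to 5137 lower over all genes, in place of 4715 and 3983, and the part of the scaling in the lost calls was not tested. Tln1, talin, and Vcl, vinculin, which connect integrins to actin, were lower on ER-labelled ribosomes at -0.34 (SE 0.041) and -0.33 (SE 0.043), and their ratios on cytosol-labelled ribosomes over whole-cell RNA were 0.03 (SE 0.040) and 0.02 (SE 0.043). The alpha-actinins Actn1 and Actn4, which bundle filaments, were at -0.02 (SE 0.038) and 0.00 (SE 0.036) between the pools. Neither passed the threshold in any comparison, but some alternatives changed this. With cytosolic scaling both were called higher on both ribosome pools over whole-cell RNA. On cytosol-labelled ribosomes over whole-cell RNA both were also called without cytosol whole-cell replicate 1. Actn1 was called there, too, with mitochondrially encoded genes left out or without cytosol ribosome-bound replicate 2.

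Spectrins form the mesh under the plasma membrane and ERM proteins tie filaments to it. Sptbn1, beta-spectrin, was at 53.0, 52.6 and 56.7 CPM on cytosol-labelled and at 71.9, 71.9 and 70.3 CPM on ER-labelled ribosomes. Whole-cell RNA had Sptbn1 at 55.3, 54.8 and 58.1 CPM with cytosol targeting and at 62.8, 58.8 and 58.8 CPM with ER targeting. The ER-labelled libraries were the highest without overlap, and the log2 ratio over cytosol-labelled ribosomes was 0.40 (SE 0.045, adjusted p = 1.1e-09, edgeR), the highest of the members. Over whole-cell RNA it was 0.25 (SE 0.045). Its partner Sptan1, alpha-spectrin, stood at -0.04 (SE 0.040) between the pools, which did not pass the threshold. That changed in several alternatives, with values down to -0.14, such as no low-count filter or mitochondrially encoded genes left out. It also changed when any cytosol whole-cell library was left out. Against whole-cell RNA Sptan1 was lower on both pools, by -0.32 (SE 0.040) on ER-labelled and -0.28 (SE 0.040) on cytosol-labelled ribosomes, neither called with cytosolic scaling.

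Ezr, ezrin, was at 415.4, 423.7 and 433.3 CPM on cytosol-labelled and at 395.6, 393.1 and 381.1 CPM on ER-labelled ribosomes. Levels of Ezr in whole-cell RNA were 338.6, 345.3 and 332.3 CPM with cytosol targeting and 350.0, 344.3 and 333.0 CPM with ER targeting. The groups did not overlap between ribosome pools or with whole-cell RNA. The log2 ratios over whole-cell RNA were 0.32 (SE 0.033, adjusted p = 2.2e-10, edgeR) for cytosol-labelled and 0.19 (SE 0.034) for ER-labelled ribosomes. Between both pools, ezrin had -0.12 (SE 0.033) and moesin, Msn, -0.19 (SE 0.036), and with cytosolic scaling ezrin was at -0.04 and no longer called.

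Tubulins are the subunits of microtubules. None of the 8 was higher on ER-labelled than on cytosol-labelled ribosomes and 5 were lower, under either scaling. Of all genes 29.1% were higher and 24.6% lower before cytosolic scaling. Tubg1, gamma-tubulin, which starts microtubules at the centrosome, was at 88.6, 83.0 and 86.6 CPM on cytosol-labelled and at 62.5, 67.9 and 64.1 CPM on ER-labelled ribosomes. Whole-cell RNA held Tubg1 at 86.7, 84.9 and 85.6 CPM with cytosol targeting and at 83.8, 82.4 and 88.2 CPM with ER targeting. The ER-labelled libraries were below all 9 others, which lay together. The log2 ratio was -0.41 (SE 0.043, adjusted p = 2.1e-10, edgeR) against cytosol-labelled ribosomes and -0.39 (SE 0.043) against whole-cell RNA.

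Tubb6, a beta-tubulin, was at 197.2, 193.7 and 191.5 CPM on cytosol-labelled and at 149.4, 157.8 and 146.9 CPM on ER-labelled ribosomes. In whole-cell RNA Tubb6 was at 177.5, 180.4 and 171.5 CPM with cytosol targeting and at 175.1, 179.7 and 176.7 CPM with ER targeting. No groups overlapped except both whole-cell ones, which stood in the middle, and the log2 ratio between the ribosome pools was -0.36 (SE 0.036). Tubb4b, another beta-tubulin, had -0.34 (SE 0.038), Tubb2a -0.29 (SE 0.065) and the alpha-tubulin Tuba1a -0.19 (SE 0.044). Tubb5, the tubulin with the most counts here at 2424.1 ± 22.6 CPM on cytosol-labelled and 2335.8 ± 43.2 CPM on ER-labelled ribosomes (SD, n = 3), had -0.05 (SE 0.031), which did not pass the threshold.

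The alpha-tubulin Tuba1b was at 670.4, 743.8 and 709.1 CPM on cytosol-labelled and at 659.8, 679.6 and 687.2 CPM on ER-labelled ribosomes. Its whole-cell levels were 873.3, 855.3 and 869.1 CPM with cytosol targeting and 868.1, 850.0 and 856.9 CPM with ER targeting. Both ribosome pools overlapped and lay below whole-cell RNA. The log2 ratio between the pools was -0.07 (SE 0.035, adjusted p = 0.10, edgeR), and over whole-cell RNA it was -0.35 (SE 0.035) on ER-labelled and -0.29 (SE 0.035) on cytosol-labelled ribosomes. Like Actr2, Arpc1b, Arpc3, Dync1i2, Tuba1c and Tubb5, Tuba1b did not pass the threshold between the pools but was called lower there with RLE size factors. Over whole-cell RNA, 7 of 8 tubulins were lower on ER-labelled ribosomes, beside 30.6% of all genes. With cytosolic scaling 1 was lower and 3 higher there, while of 16221 genes 1971 were lower and 8874 higher. On cytosol-labelled ribosomes 4 were lower and 2 higher, beside 33% and 20.8% of all genes. With cytosolic scaling 1 was lower and 5 higher there, while 3288 genes were lower and 6090 higher. The alpha-tubulins share 97.9% (Tuba1c) and 98.3% (Tuba1a) of coding bases with Tuba1b, so the split of reads among them is uncertain.

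Cells are known to adjust tubulin synthesis while it is translated: when free tubulin is in excess, Ttc5 binds the first amino acids of the nascent chain as it leaves the ribosome and the mRNA is degraded. The first 30 coding bases of 6 alpha-tubulins and beta-tubulins and of gamma-tubulin are shown for that reason (GENCODE M21 on GRCm38), with the first 4 codons in capitals.
Tuba1a: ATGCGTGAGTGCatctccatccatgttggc
Tuba1b: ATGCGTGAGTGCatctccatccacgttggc
Tuba1c: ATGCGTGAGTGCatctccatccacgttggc
Tubb2a: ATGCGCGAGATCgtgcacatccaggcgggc
Tubb4b: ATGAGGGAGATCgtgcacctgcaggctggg
Tubb5: ATGAGGGAAATCgtgcacatccaggccgga
Tubg1: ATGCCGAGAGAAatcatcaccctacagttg

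The motif searched at the coding start, on the coding strand only, began with ATG, followed by CGN (or by AGA, also by AGG), with GAA next (alternatively GAG), and ended in ATN other than the start codon (alternatively in TGT, also TGC). This start stood in 7 of 8 tubulin members, all but Tubg1, in 0 of the other 41 members and in 16 of 21708 genes (0.0737%), all of them alpha-tubulins or beta-tubulins. Members with the motif ranged from -0.36 (Tubb6, SE 0.036) to -0.05 (Tubb5 and Tuba1c) in log2 ratio between the ribosome pools. Tubg1, without the motif, had -0.41 (SE 0.043). The part of the motif in these ratios was not tested. Ttc5 itself was at 77.7 ± 3.0 CPM on cytosol-labelled and 60.0 ± 1.0 CPM on ER-labelled ribosomes (SD, n = 3), with a log2 ratio of -0.37 (SE 0.042).

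Of 5 motors and microtubule-binding proteins, 3 were lower and 1 higher on ER-labelled than on cytosol-labelled ribosomes, or 2 and 1 with cytosolic scaling. Of all genes 24.6% were lower and 29.1% higher before that scaling. Map4, which binds and steadies microtubules, was at 373.4, 356.3 and 372.9 CPM on cytosol-labelled and at 287.0, 293.8 and 273.7 CPM on ER-labelled ribosomes. Whole-cell RNA gave Map4 at 369.3, 378.1 and 376.3 CPM with cytosol targeting and at 366.8, 387.0 and 378.7 CPM with ER targeting. Only the ER-labelled libraries stood apart, below the others, with -0.37 (SE 0.035, adjusted p = 1.9e-11, edgeR) against cytosol-labelled ribosomes and -0.41 (SE 0.035) against whole-cell RNA.

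Kif5b, the heavy chain of conventional kinesin, was at 63.4, 64.4 and 70.0 CPM on cytosol-labelled and at 69.2, 71.1 and 78.3 CPM on ER-labelled ribosomes. In whole-cell RNA Kif5b was at 125.7, 125.9 and 124.1 CPM with cytosol targeting and at 129.6, 118.1 and 126.0 CPM with ER targeting. The ribosome pools overlapped and were far below whole-cell RNA, at -0.77 (SE 0.046) on ER-labelled and -0.92 (SE 0.046, adjusted p = 6.1e-19, edgeR) on cytosol-labelled ribosomes. Its ratio between the pools, 0.14 (SE 0.047), was not called with RLE size factors or when 1 library was left out, other than ER whole-cell replicate 1 or cytosol ribosome-bound replicate 3, with values down to 0.03. Kif11, the kinesin that pushes spindle poles apart, was lower on ER-labelled ribosomes at -0.24 (SE 0.035), and Dctn1, the large subunit of dynactin, at -0.12 (SE 0.048), the latter not with cytosolic scaling (-0.04) or without cytosol ribosome-bound replicate 3. Against whole-cell RNA all 5 were lower on ER-labelled ribosomes, beside 30.6% of all genes. With cytosolic scaling 4 were lower, beside 1971 of 16221 genes.

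The intermediate filament proteins differed among themselves. Vim, vimentin, was at 201.4, 191.0 and 202.4 CPM on cytosol-labelled and at 205.9, 208.9 and 192.1 CPM on ER-labelled ribosomes. In whole-cell RNA Vim was at 207.6, 191.5 and 206.1 CPM with cytosol targeting and at 214.7, 224.7 and 194.0 CPM with ER targeting. All 4 groups overlapped, and no comparison was called, the ratio between the pools being 0.03 (SE 0.044), though it was 0.11 and called with cytosolic scaling. Krt8, a keratin of simple epithelia, was at 27.2, 26.5 and 27.9 CPM on cytosol-labelled and at 24.5, 23.7 and 22.2 CPM on ER-labelled ribosomes. Whole-cell RNA gave Krt8 at 21.1, 19.2 and 21.6 CPM with cytosol targeting and at 20.4, 21 and 20.9 CPM with ER targeting. Ribosome-bound libraries were above whole-cell ones, by 0.40 (SE 0.061, adjusted p = 7.2e-07, edgeR) on cytosol-labelled and 0.18 (SE 0.063) on ER-labelled ribosomes, the latter not called without ER ribosome-bound replicate 1. Between the pools Krt8 had -0.21 (SE 0.060) and its partner Krt18 -0.18 (SE 0.051), neither called with cytosolic scaling.

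Set against whole-cell RNA, 26 members were lower and 9 higher on ER-labelled ribosomes, where 63.1% of all genes were called, 30.6% as lower and 32.5% as higher. On cytosol-labelled ribosomes 15 were lower and 20 higher, where 53.9% of all genes were called, 33% as lower and 20.8% as higher. The medians over members were -0.09 and 0.03, and over all genes 0.01 and -0.05. Cytosolic scaling raised the median of all genes by 0.278 and 0.185 in these comparisons and left 10 members lower and 28 higher on ER-labelled and 8 lower and 34 higher on cytosol-labelled ribosomes. Over all genes it gave 8874 higher and 1971 lower in place of 5271 and 4967, and 6090 higher and 3288 lower in place of 3380 and 5360. For members within about that shift of 0, the side of 0 depended on the scaling.

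Spearman's rho across the 49 members between coding length and log2 ratio was -0.50 on ER-labelled and -0.58 on cytosol-labelled ribosomes over whole-cell RNA, beside -0.29 and -0.38 across 14150 protein-coding genes. Between both ribosome pools rho was 0.21 across members and 0.05 across all. In whole-cell RNA with ER over cytosol targeting, where no gene passed the threshold, rho was 0.31 across members and 0.06 across all. The value between the pools was thus no larger than that between both whole-cell groups. These are descriptions across genes, which share libraries and are not independent. Of the 16 members under 1000 coding bases, 13 were higher and 1 lower on cytosol-labelled ribosomes over whole-cell RNA (median 0.17). Of all 4515 genes of that length 1542 were higher and 839 lower (median 0.09). The 6 members of at least 5000 coding bases, Myh9, Myh10, Flna, Tln1, Sptan1 and Sptbn1, had medians of -0.64 there and -0.63 on ER-labelled ribosomes, beside -0.81 and -0.55 over 598 genes of that length. Between the ribosome pools both the 6 members and the 598 genes had a median of 0.21, and 319 of the 598 were called higher and 44 lower. Within this class the members spread widely, since Tln1 and Sptbn1 stood at 0.03 (SE 0.040) and -0.05 (SE 0.046) on cytosol-labelled ribosomes over whole-cell RNA while Myh9, Myh10 and Flna were between -1.21 and -1. RNA integrity was not among the values analysed, and the part of length in capture or purification was not tested.

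**Figure D3:**
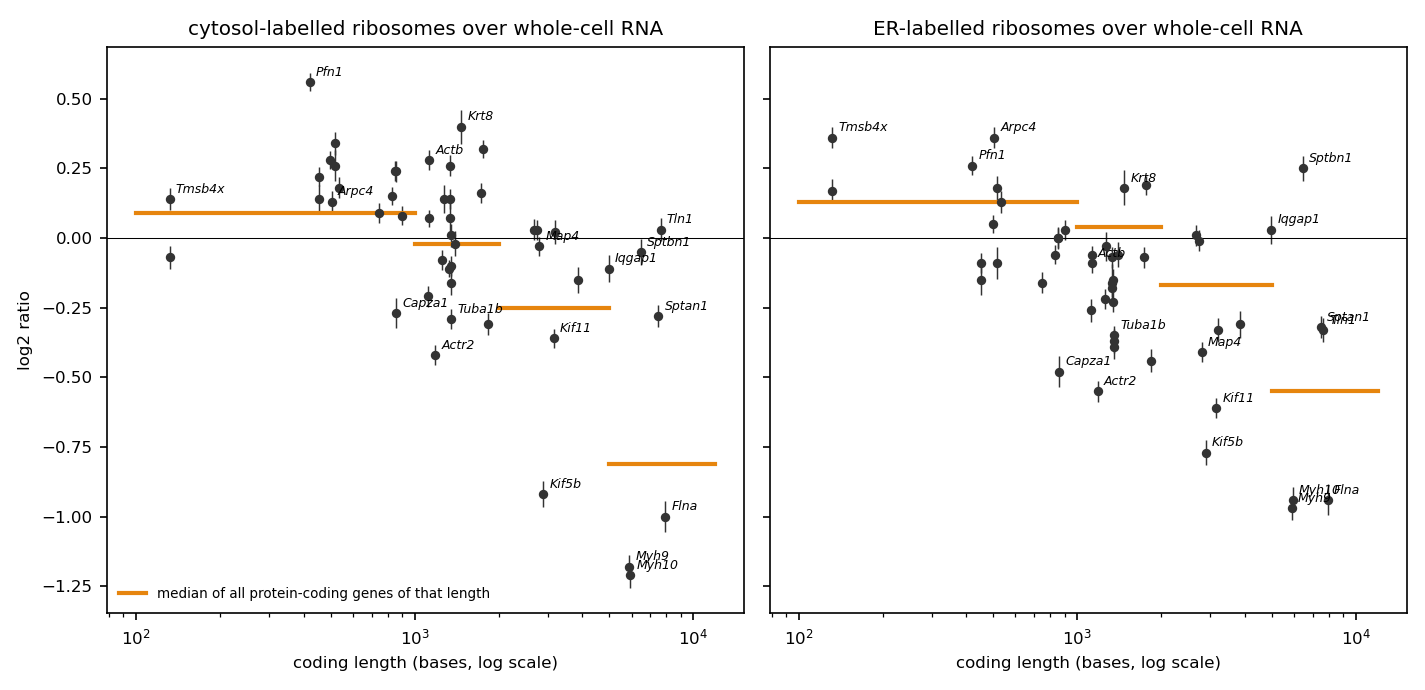
Log2 ratio of ribosome-bound over whole-cell RNA (vertical, with SE bars) against coding length on a log scale for the 49 members, on cytosol-labelled ribosomes at the left and ER-labelled ribosomes at the right. Horizontal bars give the median of all protein-coding genes in 4 classes split at 1000, 2000 and 5000 coding bases, and members range from 0.56 for Pfn1 to -1.21 for Myh10 at the left.

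Whole-cell RNA did not separate the targetings. With ER over cytosol targeting, 0 of 49 members and 0 of 16221 genes (0%) passed the threshold with edgeR, and 0 with DESeq2. At an unadjusted p below 0.05, 1 member and 634 genes differed. The members' log2 ratios lay between -0.06 and 0.10, with a median of 0.01.

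Whether the ratio over whole-cell RNA differed between ER-labelled and cytosol-labelled ribosomes was tested directly with an interaction term. It was lower at the ER for 26 members and higher for 6, where 43.4% of all genes were called, 18.6% as lower and 24.8% as higher, and its median was -0.16 over members. With cytosolic scaling 17 were lower and 8 higher, while over all genes 4551 were higher and 1512 lower in place of 4023 and 3010. The 6 higher members were Sptbn1, Myh10, Tmsb10, Arpc4, Tmsb4x and Myh9, of which the first 4 were called under all alternatives run. Tmsb4x was not called without ER ribosome-bound replicate 2, cytosol whole-cell replicate 3 or ER whole-cell replicate 3, with values down to 0.13. Myh9 was not called without cytosol ribosome-bound replicate 2, ER ribosome-bound replicate 1 or 2, cytosol whole-cell replicate 1 or ER whole-cell replicate 3, also with values down to 0.13.

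Ratios of 2 members within a library do not depend on the scaling. The pairs were chosen after their values were seen, so no test was run, and 3 libraries against 3 could not give an exact permutation p below 0.1. The read count of Actb over that of Actg1 was 0.605 ± 0.021 (SD, n = 3) on cytosol-labelled ribosomes, 0.482 ± 0.026 on ER-labelled ribosomes, 0.522 ± 0.024 in whole-cell RNA with cytosol targeting and 0.491 ± 0.017 with ER targeting. The 3 cytosol-labelled libraries, at 0.628, 0.601 and 0.587, lay above all 9 others. Tubb4b over Tubb5 was 0.206 ± 0.012 on cytosol-labelled and 0.169 ± 0.005 on ER-labelled ribosomes, and 0.159 ± 0.006 and 0.156 ± 0.008 in whole-cell RNA. Arpc4 over Arpc5 was 2.193 ± 0.040 on ER-labelled ribosomes and 1.493 ± 0.051, 1.505 ± 0.046 and 1.556 ± 0.159 in the cytosol-labelled, cytosol whole-cell and ER whole-cell groups. Sptbn1 over Sptan1 was 0.451 ± 0.015 on ER-labelled and 0.333 ± 0.020 on cytosol-labelled ribosomes. Of 2 proteins with similar coding lengths, Tln1 over Flna was 2.155 ± 0.147 on cytosol-labelled ribosomes, 1.527 ± 0.044 on ER-labelled ribosomes, and 1.054 ± 0.087 and 1.006 ± 0.092 in whole-cell RNA. The heavy chains kept a ratio, Myh9 over Myh10, of 1.774 to 1.827 as a mean in all 4 groups.

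**Figure D4:**
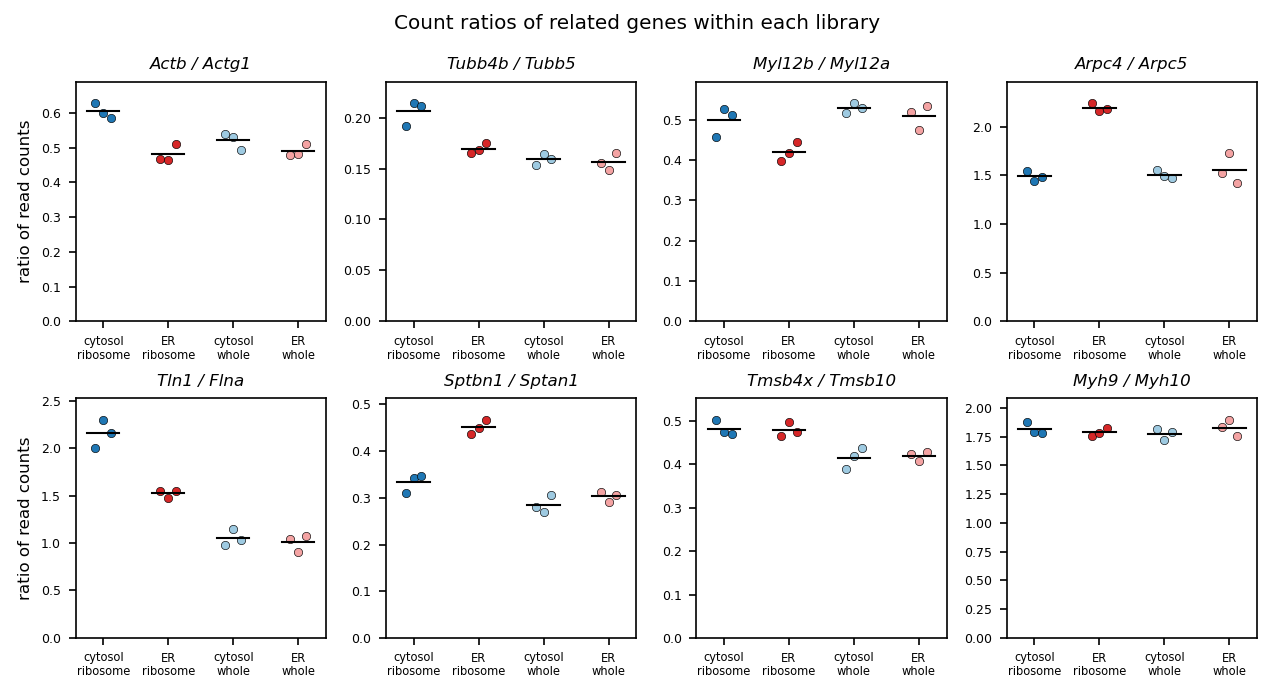
Ratio of read counts of 8 pairs of related members in each library, with points for libraries and lines for the means of 3. Actb over Actg1 is highest on cytosol-labelled ribosomes (mean 0.605), Arpc4 over Arpc5 and Sptbn1 over Sptan1 are highest on ER-labelled ribosomes (2.193 and 0.451), and Myh9 over Myh10 lies within 1.774 to 1.827 as group means.

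Other genes of the same pathways were read from lists, each beside the 24.6% of all genes called lower and 29.1% called higher on ER-labelled over cytosol-labelled ribosomes. Of 19 genes for the chaperonin, prefoldin and tubulin cofactors, which fold actin and tubulin, 15 were lower and 0 higher on ER-labelled over cytosol-labelled ribosomes (median -0.28), or 13 lower and 1 higher with cytosolic scaling. Cct6a, a chaperonin subunit, had the lowest value at -0.49 (SE 0.034), and Tbcd, a tubulin cofactor, at -0.11 (SE 0.040) the highest called. Of 20 genes for microtubule growth, nucleation and severing, 6 were lower and 2 higher (median -0.06), or 6 and 3 with cytosolic scaling, so 40% were called, below the 53.6% of all genes. They ranged from Ttc5 to Spast, the severing enzyme spastin, which reached 102.7 ± 1.4 CPM on ER-labelled against 62.8 ± 0.7 CPM on cytosol-labelled ribosomes (SD, n = 3; log2 0.71, SE 0.039).

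Of 25 other kinesins, dynein and dynactin subunits, 15 were lower and 3 higher (median -0.16), or 11 and 5 with cytosolic scaling. Klc2, a kinesin light chain, was lowest at -0.33 (SE 0.055). Dync1h1, the dynein heavy chain with 13932 coding bases, was highest at 0.52 (SE 0.047), and it lay at -1.89 (SE 0.044) and -2.34 (SE 0.045) on ER-labelled and cytosol-labelled ribosomes over whole-cell RNA. Integral membrane partners of the cytoskeleton, which include integrins and cadherins and enter the ER membrane as they are made, were higher on ER-labelled than on cytosol-labelled ribosomes in 13 of 13 (median 2.00), under either scaling. They ranged from Cd44 at 1.54 (SE 0.257), at 2.3 ± 0.4 CPM on ER-labelled ribosomes, to the integrin Itgb1 at 2.30 (SE 0.036), which was at 570.0 ± 4.8 CPM against 116.1 ± 3.8 CPM.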

How the data were processed

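The authors deposited whole-number read counts per Ensembl gene, 1 file per library, not normalized. Per the submitters' processing notes, STAR 2.7.9a, HTSeq 0.11.2, GRCm39 and DESeq2 were used. Not given in the sources used here were the annotation release, the strand setting and how multimapped reads were treated, so counts of overlapping and near-identical genes are uncertain. Class totals for reads not assigned to a gene (8.75% to 12.54% of reads) stayed out of library sizes and tests. They include reads that overlap several genes and the reads placed at more than 1 site.

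Names, coding lengths (principal transcript, stop codon left out) and sequences came from GENCODE M21 on GRCm38, which matched 52135 identifiers. Another 3281 had no match, with 0.4% of counts. Overlaps between genes were read from that annotation, and no coordinates are printed. Myl12b has 2 identifiers, and the one with 79 counts over all libraries was not used.

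The filter on low counts (filterByExpr, groups as given) left 16221 genes, and library sizes were scaled by TMM. In edgeR 4.0.16 (R 4.3.3) the 12 libraries were fitted together with a mean for each of the 4 groups, with a biological coefficient of variation of 3.61%. The 5 comparisons were tested, 2-sided, by edgeR's quasi-likelihood test, and p-values were adjusted by Benjamini-Hochberg over the 16221 genes, with a threshold of 0.05. CPM are TMM-scaled. The SE is the size of the log2 ratio divided by the root of its F statistic. The fit was tested on simulated data. Few genes differed there, with as many raised as lowered, so the choice of scaling was not tested by it. Errors cover counting and the spread between libraries, not a bias of amplification by PCR that all libraries of a group share. Replicates of a group correlated at 0.9968 to 0.9981 across genes, at 2.11 to 9.1 chi-square units per gene, so none were identical.

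Groups came from the labels. Alternatives were RLE size factors, cytosolic scaling, DESeq2 1.42.0, no low-count filter, mitochondrially encoded genes left out, only the groups compared, a replicate block, and each of the 12 libraries left out. Values in every library were given for Actb, Tuba1b, Vim, Myh9 and the 4 highest and 4 lowest members between ribosome pools and over whole-cell RNA, and from each pathway list reported the highest and lowest called gene was named. One pathway list is not reported here. Members and lists were chosen with earlier results of these data known, and the pairs for ratios after their values were seen.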

Additional observations from a re-analysis of the deposited data

Results flagged for a closer look

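For 32 of the 49 members the ratio of ribosome-bound to whole-cell RNA differed between ER-labelled and cytosol-labelled ribosomes by the interaction term (adjusted p below 0.05, quasi-likelihood test of edgeR, adjusted by Benjamini-Hochberg). Over all genes 43.4% were called. Values are log2 differences, ER minus cytosol, and the cause of none was tested.

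Of actins and monomer-binding proteins, Actb was at -0.37, Actg1 at -0.13, Cfl1 at -0.23 and Pfn1 at -0.30, while Tmsb4x was at 0.22 and Tmsb10 at 0.24. Of the Arp2/3 complex, Actr3 was at -0.13 and Arpc5 at -0.29, and Arpc4 stood on the other side at 0.23. Capza1 and Capzb were at -0.21, and Tpm1, Tpm3 and Tpm4 at -0.24. The myosin heavy chains Myh9 and Myh10 were at 0.22 and 0.28, against -0.31 for Myl6, -0.16 for Myl12a and -0.35 for Myl12b. Tln1 was at -0.36, Vcl at -0.35, Ezr at -0.14 and Msn at -0.23, and Sptbn1 at 0.30. Among tubulins, Tuba1a was at -0.20, Tubb4b at -0.33, Tubb6 at -0.36, Tubb2a at -0.23 and Tubg1 at -0.39. Kif11 was at -0.25, Map4 at -0.38 and Krt8 at -0.22.

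With cytosolic scaling 25 members passed the threshold, 17 lower and 8 higher. The calls of Actg1, Actr3, Arpc5, Capza1, Ezr, Krt8, Myl12a, Tuba1a and Tubb2a were lost there. Those of Actr3, Capza1, Ezr and Tubb2a were also lost without replicate 3 of the cytosol ribosome-bound group or replicate 1 of the ER whole-cell group, that of Tubb2a without ER ribosome-bound replicate 1, and that of Krt8 without cytosol ribosome-bound replicate 1 or 3. Myh9 lost its call without cytosol ribosome-bound replicate 2, ER ribosome-bound replicate 1 or 2, cytosol whole-cell replicate 1 or ER whole-cell replicate 3, and Tmsb4x without ER ribosome-bound replicate 2, cytosol whole-cell replicate 3 or ER whole-cell replicate 3.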

How the results depend on the processing

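In the comparison of both ribosome pools 6 of 9 higher and 20 of 28 lower calls were kept under all 19 alternatives run, and no member called under either setting changed sign. On ER-labelled ribosomes over whole-cell RNA 8 of 9 higher and 10 of 26 lower calls were kept (22 of the lower ones when cytosolic scaling is set aside), and on cytosol-labelled ribosomes 18 of 20 higher and 8 of 15 lower calls (11 when it is set aside). For the interaction 4 of 6 higher and 17 of 26 lower calls were kept under its 18 alternatives. The median log2 ratio of members between the ribosome pools was -0.16 with DESeq2 and with RLE size factors, -0.04 with cytosolic scaling, -0.17 with mitochondrially encoded genes left out and -0.18 without the filter. Over whole-cell RNA it was 0.19 on ER-labelled ribosomes with cytosolic scaling, and on cytosol-labelled ribosomes 0.07 with DESeq2 and RLE size factors, 0.21 with cytosolic scaling, 0.08 without the filter and 0.09 with mitochondrially encoded genes left out or with only the groups compared. For the interaction it was -0.20 with DESeq2 and RLE size factors, -0.06, -0.21 and -0.22 with cytosolic scaling, mitochondrially encoded genes left out and no filter, and for whole-cell RNA -0.01 with cytosolic scaling. The cause was not tested. Cytosolic scaling gave 28 higher and 10 lower on ER-labelled and 34 higher and 8 lower on cytosol-labelled ribosomes over whole-cell RNA, and 17 lower for the interaction.

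Leaving out 1 library gave 6 to 9 higher and 24 to 36 lower members between the pools (median -0.19 to -0.11), 8 to 9 higher and 22 to 27 lower on ER-labelled ribosomes over whole-cell RNA (-0.14 to -0.09), 19 to 24 higher and 11 to 17 lower on cytosol-labelled ribosomes over whole-cell RNA (0.02 to 0.11), 0 in whole-cell RNA (0.00 to 0.01), and 4 to 7 higher and 21 to 32 lower for the interaction (-0.23 to -0.15). Spearman's rho of coding length ranged from 0.16 to 0.27, -0.54 to -0.48, -0.58 to -0.54, 0.11 to 0.49 and 0.15 to 0.24 in the same order.

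Cytosolic scaling changed the sign of 28 values called under one scaling or both, sign changes of values called under neither not being counted. On ER-labelled ribosomes over whole-cell RNA Actb became 0.19, Actg1 0.22, Actn4 0.27, Actr3 0.06, Arpc1b 0.02, Arpc5 0.13, Capzb 0.22, Krt18 0.25, Msn 0.21, Myl12b 0.19, Myl6 0.19, Tpm3 0.28, Tpm4 0.12, Tuba1c 0.13, Tubb2a 0.11, Tubb4b 0.21, Tubb5 0.10, Tubb6 0.05 and Vim 0.22. On cytosol-labelled ribosomes over whole-cell RNA Actr3 became 0.10, Dctn1 0.04, Map4 0.16, Sptbn1 0.13, Tmsb10 0.11, Tuba1a 0.02, Tuba1c 0.08, Tubb5 0.07 and Vim 0.16.

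Replicate numbers are shared across groups, but deviations of same-numbered libraries correlated at -0.268 to 0.268, so the numbers were not taken to pair them. With the replicate block 9 members were higher and 28 lower between the pools (median -0.12), 9 and 26 (-0.09) on ER-labelled and 19 and 16 (0.03) on cytosol-labelled ribosomes over whole-cell RNA, and 7 and 27 (-0.16) for the interaction, and 0 in whole-cell RNA (0.01). With the block Dctn1 was not called and Actr2 was called lower between the pools, Tpm4 was not called and Actr3 was called lower on cytosol-labelled ribosomes over whole-cell RNA, and Actr2 and Kif5b were called for the interaction. Depth of 21.1 to 26.9 M gene counts gave every member at least 427 reads per library.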

Other observations

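Related tubulins also differed in their ratio within a library, in pairs chosen after the values were seen. The count of Tubb6 over that of Tubb5 was 0.081, 0.080 and 0.080 on cytosol-labelled ribosomes and 0.065, 0.066 and 0.063 on ER-labelled ribosomes, while whole-cell RNA lay at 0.065 to 0.070. Tuba1c over Tuba1b was 0.367 ± 0.009 (SD, n = 3) on cytosol-labelled and 0.371 ± 0.010 on ER-labelled ribosomes, above the 0.321 ± 0.013 and 0.325 ± 0.006 of whole-cell RNA. Tmsb4x over Tmsb10 was 0.482 ± 0.018 and 0.480 ± 0.017 on cytosol-labelled and ER-labelled ribosomes, and 0.416 ± 0.025 and 0.420 ± 0.011 in whole-cell RNA, so this pair separated ribosome-bound from whole-cell RNA and not the pools from each other. No test was run on these pairs.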
